A study of Mus musculus with 4 samples.

Results

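The 9 genes described here are Pou5f1, Nanog, Sall4, Utf1, Zfp42, Dppa2, Dppa4, Dppa3 and Dppa5a, chosen by symbol as core pluripotency genes and genes of the Dppa group (developmental pluripotency associated). All 9 were found among 23235 gene symbols with FPKM values, and all 9 stood above 1 FPKM in every library. FPKM is a read number divided by gene length and library size, so levels of different genes can be set side by side. RNA was sequenced in 4 mouse cultures of strain 129S4/SvJae, 1 library each. WT_ES was wild-type embryonic stem (ES) cells of the J1 background at day 0, DKO_ES was ES cells with Dnmt3a and Dnmt3b, the de novo DNA methyltransferase genes, both knocked out, and WT_NP and DKO_NP were neural progenitor cells made from these lines and taken at day 6. Both lines were kept in serum with leukemia inhibitory factor, at first on irradiated feeder cells and then for at least 2 passages without them. Both were differentiated as embryoid bodies for 4 days and then with retinoic acid for 2 days. The labels do not say how many knockout clones were used or how the alleles were made.

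Pluripotency, the ability to form every tissue of the embryo, rests in mouse ES cells on a small circuit of transcription factors that bind each other's genes. POU5F1 (OCT4) pairs with SOX2 on joined octamer and Sox motifs, NANOG and SALL4 bind many of the same enhancers, and UTF1 and ZFP42 (REX1) are chromatin and zinc-finger proteins of the undifferentiated state. The Dppa genes share a name, not a mechanism. DPPA2 and DPPA4 are SAP-domain partners that keep certain developmental promoters unmethylated, DPPA3 (STELLA) binds UHRF1 and limits DNA methylation in the egg and early embryo, and DPPA5A (ESG1) is a KH-domain RNA-binding protein. Promoters of several of these genes gain DNA methylation when ES cells differentiate, and DNMT3A and DNMT3B are the enzymes that add such new methylation.

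RefSeq promoter windows (GRCm38.p6) were at hand for 4 of the 9 genes, Pou5f1, Nanog, Utf1 and Zfp42, and the 250 bases before each annotated start were read. Nanog and Zfp42 are shown first because both windows hold the octamer motif ATGCAAA or its reverse complement. Capitals mark every match to the motifs searched on both strands: the octamer, the Sox motifs ACAATG and ACAAAG, the nuclear receptor half-site AAGGTCA, the Klf motif GGGTGTGG, the E-box CACGTG and the E2F motif GCGGGAA. The Nanog window (the second annotated start) lies at chr6:122707315-122707564 on the + strand and the Zfp42 window at chr8:43307010-43307259 on the - strand.
Nanog: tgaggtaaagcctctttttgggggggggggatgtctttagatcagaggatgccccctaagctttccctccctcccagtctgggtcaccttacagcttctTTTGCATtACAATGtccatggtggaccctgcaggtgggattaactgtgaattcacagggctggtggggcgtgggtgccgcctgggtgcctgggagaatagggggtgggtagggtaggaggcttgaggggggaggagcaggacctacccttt
Zfp42: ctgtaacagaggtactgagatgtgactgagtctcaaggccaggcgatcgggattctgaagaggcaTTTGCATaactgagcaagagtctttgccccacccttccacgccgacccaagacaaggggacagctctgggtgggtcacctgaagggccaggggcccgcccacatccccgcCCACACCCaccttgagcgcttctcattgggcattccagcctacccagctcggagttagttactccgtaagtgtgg

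With bases counted back from the annotated start, the octamer match in Nanog began at position -151 and the Sox match ACAATG at position -143, with 1 base between them and no overlap. In Zfp42 the octamer match began at position -185 and the Klf match at position -75. An octamer match stood in 3 of 6 windows of these genes (Nanog has a pair of overlapping windows that hold the same match), against 4.12% of all 32851 windows. ACAATG stood in 3 of 6 against 10.7%, and the Klf motif in 1 of 6 against 3.20%. The other Sox motif, the nuclear receptor half-site, the E-box and the E2F motif had no match in these windows, against 16.5%, 4.08%, 6.02% and 3.82% of all windows. A match describes the letters of a window and is not a bound site. The Zfp42 start and the first Nanog start of RefSeq were not found in the GENCODE transcripts.

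Utf1 and Pou5f1 (first annotated start) are shown next for their CpG dinucleotides, the bases that DNMT3A and DNMT3B methylate, which capitals mark in these lines. The windows lie at chr7:139943606-139943855 and chr17:35505782-35506031, both on the + strand.
Utf1: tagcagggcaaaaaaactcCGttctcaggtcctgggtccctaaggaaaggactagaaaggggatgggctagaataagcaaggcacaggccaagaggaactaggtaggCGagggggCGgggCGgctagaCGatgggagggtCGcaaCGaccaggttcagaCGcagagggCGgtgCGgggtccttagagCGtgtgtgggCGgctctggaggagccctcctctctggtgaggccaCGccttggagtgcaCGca
Pou5f1: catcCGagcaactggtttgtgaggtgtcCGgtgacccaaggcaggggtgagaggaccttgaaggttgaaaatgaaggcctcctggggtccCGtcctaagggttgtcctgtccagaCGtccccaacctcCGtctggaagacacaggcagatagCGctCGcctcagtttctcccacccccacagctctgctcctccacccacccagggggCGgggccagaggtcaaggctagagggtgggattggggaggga

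The Utf1 window held 14 CpGs, a ratio of observed to expected CpGs of 0.638 that was above 68.7% of all windows. The Pou5f1 window held 8 CpGs (ratio 0.334), the Zfp42 window 9 (0.424) and the Nanog window 2 (0.104), and the median over all windows was 0.373. The 4 promoters thus ranged from CpG-poor in Nanog to moderately CpG-rich in Utf1. DNA methylation of these windows was not analysed here.

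Both targeted genes stood lower in the knockout. In ES cells the level of Dnmt3a was 35.3 FPKM for wild type and 12.3 for the knockout, and at day 6 it was 17.2 and 4.14. The same pairs for Dnmt3b were 140.3 and 13.9 FPKM, then 9.98 and 5.22. Neural progenitor markers summed to 30.2 and 35.7 FPKM in wild-type and knockout ES cells and to 95.8 and 259.5 FPKM at day 6. All comparisons set 1 library against 1, so no test was possible; intervals cover counting error only, and folds are ratios of FPKM after median scaling between libraries. Without that scaling the median log2 ratio over all genes was -0.82 for WT_NP against WT_ES, -0.43 for DKO_NP against DKO_ES and 0.39 for DKO_NP against WT_NP. Differences are given relative to these shifts.

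In ES cells the 9 genes spanned a wide range of levels, in nearly the same order in both genotypes. Dppa5a was highest, at 4071 FPKM in WT_ES and 4968 in DKO_ES, rank 70 and rank 69 among all genes. Pou5f1 followed at 1087 and 1153 FPKM and Zfp42 at 620 and 645, then Nanog at 254 and 308. Of the rest, Dppa4 stood at 138 and 167 FPKM, Sall4 at 136 and 95.3, Dppa2 at 55.1 and 65.6, Utf1 at 237 and 106, and Dppa3 at 22.4 and 83.4. Dppa5a alone made up 61.5% of the summed FPKM of the 9 genes in WT_ES and 65.4% in DKO_ES. The only neighbours in the order of WT_ES with overlapping counting intervals were Dppa4 and Sall4, while in DKO_ES no neighbours overlapped. Utf1 stood above Dppa4 in WT_ES and below it in DKO_ES, and Dppa3, lowest of all in WT_ES, stood above Dppa2 in DKO_ES.

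**Figure D1:**
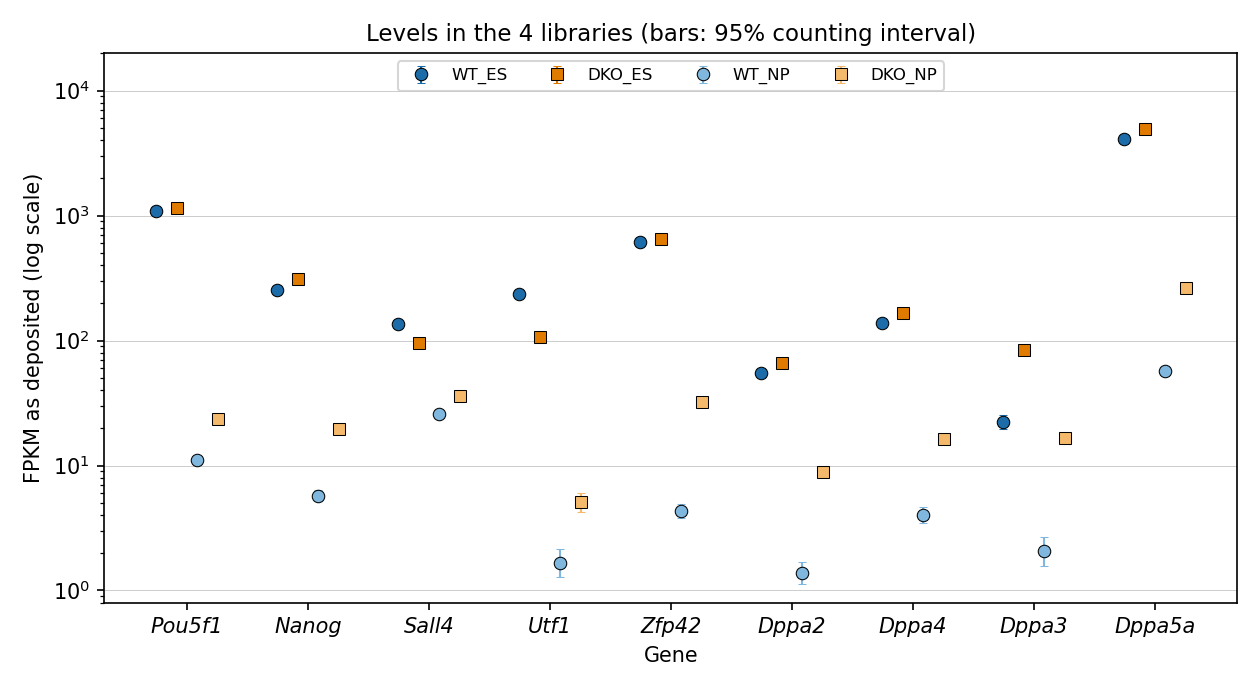
FPKM as deposited (log axis) of the 9 genes in the 4 libraries; each point is 1 library and bars are 95% counting intervals from approximate reads. In every gene both day 6 libraries sit below both day 0 libraries, which for Dppa3 does not hold after median scaling (18.3 in DKO_NP and 17.0 in WT_ES), and DKO_NP sits above WT_NP, which for Sall4 does not hold after upper-quartile scaling.

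Differentiation of wild-type cells left all 9 genes at least 2-fold lower in WT_NP than in WT_ES, while 11.3% of 14086 genes at or above 1 FPKM were at least 2-fold lower. The members' median log2 ratio was -4.34, against 0.01 over all genes. All genes split into 2287 higher and 1592 lower after median scaling, and 901 higher and 5876 lower without it, and the 9 genes were lower either way. Nanog, the gene at the median, stood at 254 FPKM in WT_ES and 5.74 in WT_NP, 22.6-fold lower (95% counting interval 20.3 to 25.1). The loss was deepest for Zfp42 and Utf1, of which WT_NP kept 1.38% and 1.39% of the scaled WT_ES level. Pou5f1 went from 1087 to 11.04 FPKM and Dppa5a from 4071 to 56.9 FPKM, and 2.00% and 2.75% were left. Of Dppa4, at 4.02 FPKM in WT_NP, 5.71% was left, and of Dppa2, at 1.39 FPKM, 4.97%. The retained end was held by Dppa3, at 2.09 FPKM with 18.4% left, and Sall4, at 25.6 FPKM with 36.9% left. Sall4 therefore stood 2nd of the 9 in WT_NP, where it had been 7th in WT_ES, and Dppa5a was still highest. In bulk RNA, fewer cells that express a gene and less RNA per cell cannot be told apart.

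Knockout cells went the same way, with a larger share of the day 0 level left for each transcript. In DKO_NP 8 of 9 genes were at least 2-fold lower than in DKO_ES, against 11.2% of 14050 genes, and the median log2 ratio was -3.46. All genes split into 1656 higher and 1570 lower after scaling, and 1102 higher and 3067 lower without it. The exception was Sall4, at 95.3 FPKM in DKO_ES and 36.3 in DKO_NP, 1.91-fold lower (1.83 to 1.98), which as deposited passed 2-fold with 38.0% left. Pou5f1 had the smallest share left in the knockout, 2.79%, at 23.4 FPKM in DKO_NP. Between these ends, 6.59% of Utf1 was left, 6.92% of Zfp42, 7.37% of Dppa5a, 8.75% of Nanog, 13.4% of Dppa4, 18.8% of Dppa2 and 27.4% of Dppa3. Each of the 9 shares was larger than its wild-type counterpart, by a factor of 1.40 for Pou5f1 and 5.00 for Zfp42, with a median of 2.35 at Dppa4. The excess was thus uneven, large in Zfp42, Utf1 (4.75) and Dppa2 (3.78), and small in Pou5f1, Sall4 (1.42) and Dppa3 (1.49). For Dppa3 the counting intervals of the folds overlapped, 0.134 to 0.248 in wild type and 0.240 to 0.313 in the knockout. A share also depends on the day 0 level. Utf1 and Sall4 started lower in DKO_ES than in WT_ES (folds 0.474 and 0.736), and the other 7 genes higher. Between day 6 libraries their folds were 2.25 for Utf1 and 1.045 for Sall4. On the log2 scale with a pseudocount, the DKO minus WT difference of ratios was at least 1 for 5 of 9 genes, Utf1, Zfp42, Dppa2, Dppa4 and Dppa5a. Over all genes 4.31% reached that difference in the same direction and 8.81% in the other. Without scaling it was 6 of 9 genes, and 11.8% and 4.82% of all genes.

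**Figure D2:**
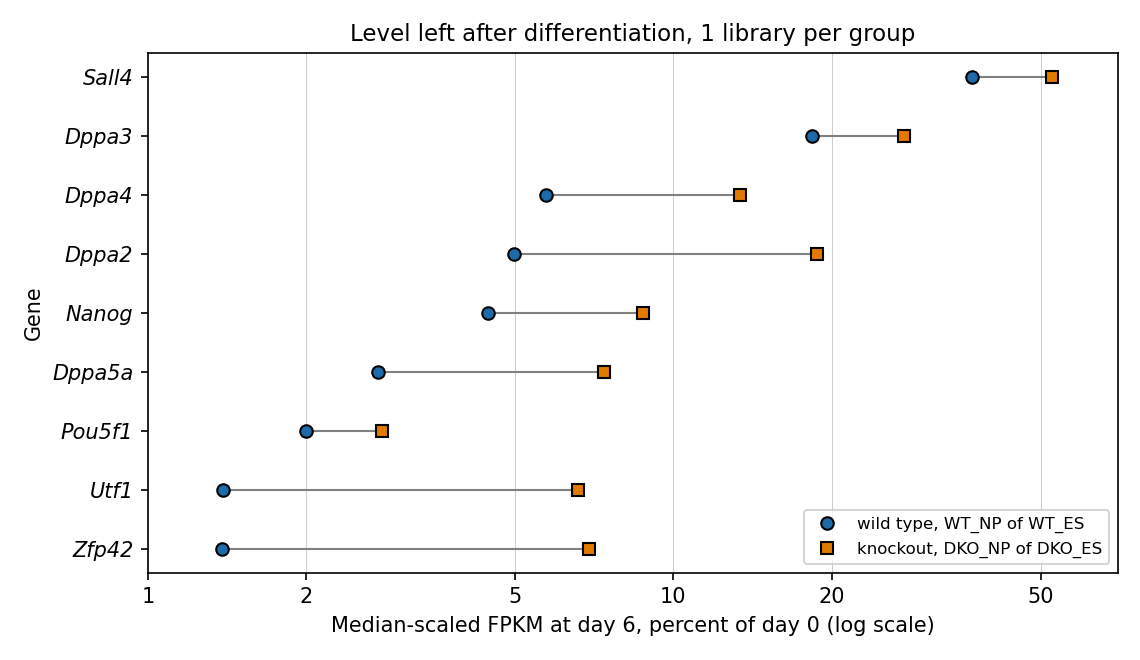
Median-scaled FPKM at day 6 as a percent of day 0 in the same genotype (log axis), 1 row per gene, circles for wild type and squares for knockout, 1 library per group. Every square lies to the right of its circle, from 1.38% to 6.92% for Zfp42 and from 2.00% to 2.79% for Pou5f1.

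Before differentiation the knockout left most of the core circuit close to wild type. Between DKO_ES and WT_ES only Dppa3 was at least 2-fold higher, against 2.56% of 13596 genes, and only Utf1 at least 2-fold lower, against 1.15%. Dppa3 was 3.93-fold higher (3.39 to 4.57), and Utf1 was 2.11-fold lower (1.99 to 2.24). Dppa2, Dppa4, Nanog and Dppa5a were higher by a similar small amount, 1.25-fold (1.17 to 1.34), 1.27-fold (1.21 to 1.34), 1.28-fold (1.24 to 1.32) and 1.29-fold (1.27 to 1.31). Pou5f1 was 1.12-fold (1.10 to 1.14) and Zfp42 1.10-fold (1.07 to 1.12) higher, and Sall4 was 1.36-fold lower (1.31 to 1.40). How far cultures of one genotype differ from each other was not measured. Fibroblast markers, a sign of feeder cells, summed to 61.1 FPKM in WT_ES and 15.8 in DKO_ES, with Dcn at 0 in both and Lum at 0 in WT_ES. Most of both sums was Tagln, at 40.5 and 9.18 FPKM, while Thy1 stood at 4.61 and 4.81. Of 5 markers at or above 1 FPKM, 3 were at least 2-fold lower in DKO_ES. The part of feeder cells in the members' differences was not tested.

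After differentiation all 9 genes stood higher in DKO_NP than in WT_NP (8 with upper-quartile scaling, which turned Sall4), 6 of them at least 2-fold on the log2 scale, against 4.76% of 13601 genes. The median log2 ratio of the 9 was 1.43 and that of all genes 0.01. Dppa3, at 2.09 FPKM in wild type and 16.6 in the knockout, was 5.87-fold higher (4.38 to 7.998). Zfp42 was next, at 4.36 and 32.4 FPKM, 5.49-fold (4.77 to 6.33), and Dppa2 stood at 1.39 and 8.93 FPKM, 4.74-fold (3.81 to 5.95). Dppa3, Zfp42 and Dppa2 thus differed most, and the central factor Pou5f1 less. Dppa5a was 3.45-fold (3.22 to 3.71), Dppa4 2.98-fold (2.52 to 3.53) and Nanog 2.52-fold (2.23 to 2.85) higher. Utf1 stood at 1.67 and 5.09 FPKM, 2.25-fold higher (1.64 to 3.12), but at 0.92 on the log2 scale with a pseudocount it was not counted. Pou5f1 was 1.56-fold higher (1.42 to 1.72). Sall4 stood at 25.6 and 36.3 FPKM, a fold of 1.045 (1 to 1.09) that became 0.966 with upper-quartile scaling, so that no direction can be given for it. Without scaling 8 of 9 genes passed 2-fold; over all genes the split was 648 higher and 1087 lower after median scaling, and 1382 higher and 531 lower without it.

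**Figure D3:**
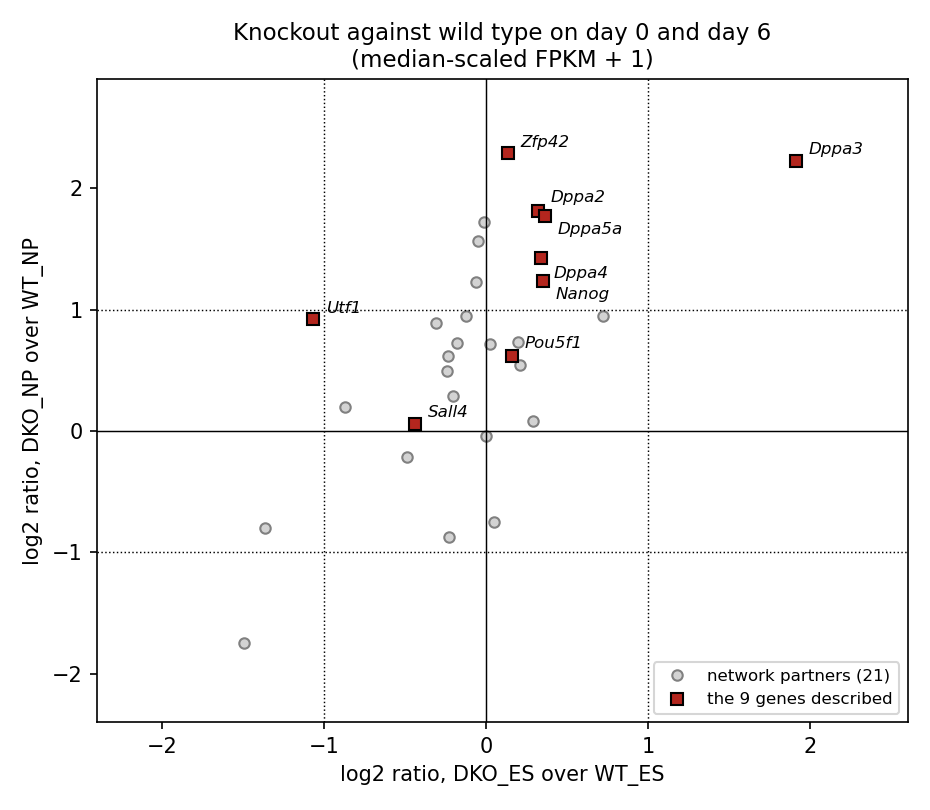
Log2 ratio of knockout over wild type on day 0 (x axis) and day 6 (y axis), median-scaled FPKM with a pseudocount of 1; squares are the 9 genes and circles the 21 network partners, 1 library per group, and dotted lines mark 2-fold. Dppa3 alone is past 2-fold higher on both days, and Utf1 lies at -1.07 on day 0 and 0.92 on day 6.

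Markers of other cell types also differed between the day 6 libraries. Over all genes 4.76% were at least 2-fold higher in DKO_NP than in WT_NP and 7.99% lower. Neural progenitor markers had 7 of 10 at least 2-fold higher in DKO_NP. Meis2 of that list went the other way, at 32.0 FPKM in WT_NP and 21.7 in DKO_NP, a scaled fold of 0.501. Summed endoderm markers stood at 129.7 FPKM in wild type and 31.6 in the knockout, with 6 of 8 at least 2-fold lower, and summed mesoderm markers at 63.6 and 10.3, with 4 of the 5 at or above 1 FPKM lower and Mesp1 at 0 in DKO_NP. Postmitotic neuron markers summed to 8.91 and 44.1 FPKM, with 3 of 5 higher. In WT_ES and DKO_ES that list had summed to 205.8 and 191.6 FPKM, more than in either day 6 library. Most of both ES cell sums was Stmn2, at 138.4 and 108.2 FPKM, and Tubb3, at 58.97 and 71.89. Dcx went the other way, at 0.0145 and 0.53 FPKM in WT_ES and WT_NP and 0.04 and 1.35 in DKO_ES and DKO_NP. In the knockout Map2 (listed as Mtap2) did so too, at 5.07 and 7.13 FPKM. Trophoblast markers summed to 387 and 271 FPKM at day 6, with 2 of 6 higher and 3 lower (1 lower without scaling). Most of both sums was Krt8, at 167.2 and 109.8 FPKM, and Krt18, at 214.4 and 141.5. Cdx2 stood at 2.49 and 0.631 FPKM, and Elf5 at 0.1385 and 1.183, a log2 ratio of 0.93. Tfap2c and Ascl2, the 2 counted as higher, also stood higher in WT_ES (22.4 and 4.56 FPKM) than in WT_NP (2.27 and 0.395). Primordial germ cell markers, whose cells express Pou5f1, Nanog and Dppa3, summed to 100.5 and 74.3 FPKM in wild-type and knockout ES cells. At day 6 their sum was 21.9 and 32.9 FPKM, and 1 of 6, Ddx4, was at least 2-fold higher with a pseudocount. Without one Prdm14, at 0.293 and 1.51 FPKM, was higher as well, 3.80-fold (2.34 to 6.40). Of the others Prdm1 stood at 1.67 and 3.19 FPKM and Nanos3 at 2.62 and 1.80. The part of these shifts in the members' differences was not tested.

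Ratios between members within a library do not depend on scaling. Dppa2 stood at 0.398 of Dppa4 in WT_ES, 0.393 in DKO_ES and 0.346 in WT_NP, but at 0.551 in DKO_NP. The pair, whose proteins work together and whose genes are adjacent, thus kept a similar ratio except in DKO_NP. Nanog stood at 0.234 and 0.267 of Pou5f1 in wild-type and knockout ES cells, and at 0.519 and 0.837 at day 6. Zfp42 stood at 0.571 and 0.559 of Pou5f1 in WT_ES and DKO_ES, at 0.395 in WT_NP and at 1.39 in DKO_NP. Dppa3 relative to Pou5f1 went from 0.0206 in WT_ES to 0.189 in WT_NP, and from 0.0723 in DKO_ES to 0.710 in DKO_NP. Sall4 relative to Pou5f1 was 0.126 in WT_ES and 0.0826 in DKO_ES, and 2.32 in WT_NP and 1.55 in DKO_NP. Dppa5a relative to Pou5f1 was 3.75 and 4.31 in wild-type and knockout ES cells, and 5.15 and 11.4 at day 6. Nanog, Zfp42, Dppa3, Sall4 and Dppa5a thus stood higher relative to Pou5f1 in DKO_NP than in either ES cell library. Utf1 stood at 0.218 of Pou5f1 in both WT_ES and DKO_NP, at 0.0923 in DKO_ES and at 0.151 in WT_NP. Its DKO_NP ratio was thus above those of DKO_ES and WT_NP, but not above that of WT_ES.

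The partners of these factors in the pluripotency network, a list of 21 genes, stood lower as well, 20 at least 2-fold lower in WT_NP (median log2 ratio -3.38) and 20 in DKO_NP (-2.999). Tdgf1, a co-receptor for Nodal, stood at 936 FPKM in WT_ES and 1.16 in WT_NP, and Fgf4, a target of POU5F1 and SOX2, at 138 and 0.351 FPKM. Tdh, the threonine dehydrogenase of mouse ES cells, stood at 322 and 2.25 FPKM, and L1td1, an RNA-binding protein gene, at 244 and 3.33. Between day 6 libraries the partners had a median of 0.55, and 4.76% of all genes were at least 2-fold higher in DKO_NP and 7.99% lower. With a pseudocount 3 partners were at least 2-fold higher, Sox2, Esrrb and Klf2, and 1 lower, Tbx3, all named after their values were seen. Without a pseudocount 8 of 21 were higher and 2 lower, a setting for which no share of all genes is given. Without scaling 5 were higher, beside 10.2% of all genes. Sox2, which encodes the partner of POU5F1, stood at 12.2 FPKM in wild type and 56.2 in the knockout, and it is also a neural progenitor gene. In ES cells 2 of 21 partners, Klf4 and Tbx3, were at least 2-fold lower in the knockout and none higher, likewise named after the fact. Over all genes 1.15% were lower and 2.56% higher there.

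Genes that silence Pou5f1 under retinoic acid were expressed at day 6 in both genotypes. The orphan receptor gene Nr2f2 stood at 0.0481 FPKM in WT_ES and 29.8 in WT_NP, and at 0.0874 in DKO_ES and 10.04 in DKO_NP. Nr2f1 stood at 0.0286 and 14.7 FPKM in wild-type cells and at 0.578 and 23.1 in knockout cells, and Nr6a1 (GCNF), a repressor of Pou5f1 and Nanog, at 23.8 and 29.3 and at 34.3 and 35.3. Of the 7 genes on this list, 3 were at least 2-fold higher in each differentiation and none lower after median scaling (1 was lower in WT_NP without it): Nr2f1 and Nr2f2 in both, Nr6a1 in wild type and Nr2f6 in the knockout. Over all genes 16.2% were at least 2-fold higher in WT_NP than in WT_ES, and 11.8% in DKO_NP than in DKO_ES. The histone methyltransferase genes Ehmt2 and Ehmt1 stood at 33.8 and 28.9 FPKM in WT_NP and 47.1 and 33.7 in DKO_NP, and Nr2f6, a further orphan receptor gene, at 16.1 and 44.1. Unlike Nr2f1 and Nr2f2, these genes were already well expressed in ES cells. In WT_ES and DKO_ES, Ehmt2 stood at 73.08 and 59.64 FPKM, Ehmt1 at 38.35 and 37.96, and Nr2f6 at 26.14 and 27.75.

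Genes tied to the Dppa proteins were followed as well. Of the cleavage-stage genes that DPPA2 and DPPA4 help to activate, Zscan4c had 11.1 and 14.1 FPKM in wild-type and knockout ES cells and 0.7 and 4.81 at day 6. Zscan4d and Zscan4f stood at 0.744 FPKM each in WT_NP and at 4.54 and 3.98 in DKO_NP. At least 2-fold higher in DKO_NP were 3 of 5 genes at or above 1 FPKM, beside 4.76% of all genes, both with a pseudocount. Without one it was 5 of 5, a setting for which no share of all genes is given. The Zscan4 genes are near-identical copies that may share reads, so these 3 values are uncertain and not independent. Uhrf1, whose protein DPPA3 binds, had 190 and 222 FPKM in wild-type and knockout ES cells and 51.2 and 118 at day 6. Dnmt3l, the cofactor of the missing enzymes, stood at 148, 250.2, 1.73 and 12.4 FPKM in the same order, and Tet1, a gene of active demethylation, at 141, 137, 8.52 and 6.15. Relative to wild type, Dnmt3l was thus 1.78-fold higher in the knockout at day 0 and 5.27-fold higher at day 6, and the folds of Tet1 were 1.02 and 0.533.

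Germline genes known to be silenced by promoter methylation were also followed, since Dppa3 is itself a gene of germ cells. Whether methylation has a part in the level of Dppa3 or of these genes was not tested. Of 12, 10 were at least 2-fold higher in DKO_NP than in WT_NP (median log2 ratio 2.39), beside 4.76% of all genes. In DKO_ES against WT_ES 5 were higher (0.72), beside 2.56% of all genes, and none was lower in either comparison. At day 6 the testis ribosomal protein gene Rpl10l had 1.06 FPKM in wild type and 21.6 in the knockout, and Tex19.1, which restrains transposable elements, 2.49 and 50.0. The germ cell translation regulator Dazl had 0.733 and 55.7 FPKM, the piRNA pathway gene Mael 0.631 and 9.78, and Hormad1, which acts on meiotic chromosome axes, 0.259 and 8.54. Dazl stood higher in DKO_NP than in DKO_ES (22.0 FPKM), which none of the 9 genes did.

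Among the patterns over the 4 libraries most like that of Pou5f1, by Euclidean distance of centred log2 values among 11122 genes at or above 5 FPKM in some library, were those of Gm7325 (distance 0.314), Tdh (0.315), Fgf4 (0.418) and Tcl1 (0.608). The nearest of the other 8 genes was Utf1, at 1.10. For Dppa3 the nearest were Gtsf1 (0.301), Pnma5 (0.365), Mt2 (0.431), Hormad2 (0.515) and Arhgap30 (0.545), and of the 8 other genes Dppa2, at 1.59. Gtsf1, also of the piRNA pathway, had 6.38 and 29.1 FPKM in wild-type and knockout ES cells and 0.327 and 6.69 at day 6. Pou5f1 and Dppa3 themselves were 3.76 apart, so the 9 genes do not share 1 pattern.

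The genes lie at 7 places in the genome, since Nanog is next to Dppa3 on chromosome 6 and Dppa4 next to Dppa2 on chromosome 16 in the GENCODE annotation. Of 40 distinct nearest protein-coding neighbours with a row, 26 reached 1 FPKM in WT_NP or WT_ES and 9 of these were at least 2-fold lower, beside 11.3% of all genes (15 without scaling, where the share of all genes was 41.7%). Next to Zfp42, the tripartite-motif genes Triml2 and Triml1 stood at 134 and 60.5 FPKM in WT_ES and at 2.14 and 0.529 in WT_NP, while Frg1 beyond them stood at 77.5 and 31.0. Beyond Dppa2, Morc1, a germline silencing gene, stood at 34.5 FPKM in WT_ES and 0.382 in WT_NP, while Pvrl3 beside Dppa4 stood at 30.9 and 21.1. Beside Dppa3, Gdf3, a TGF-beta family ligand gene, stood at 58.0 and 3.08 FPKM and Apobec1 at 11.4 and 0.398, and beside Dppa5a, Ooep, an egg protein gene, at 73.3 and 2.94 and Ddx43 at 7.10 and 0.301. These loci thus held several genes that stood lower together. Around Pou5f1 Tcf19 had a log2 ratio of 0.28, Cchcr1 of -0.04 and Psors1c2 of -0.68, and around Utf1 Tubgcp2 had one of 0.39. Kndc1, the gene before Utf1, which was named after its values were seen, stood at 3.04 FPKM in WT_ES and 0.140 in WT_NP, a log2 ratio of -1.45. Beside Sall4, Zfp64 had a log2 ratio of -1.02 and Atp9a of -0.49, and the glucose transporter gene Slc2a3 next to Nanog had one of -0.08.

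**Figure D4:**
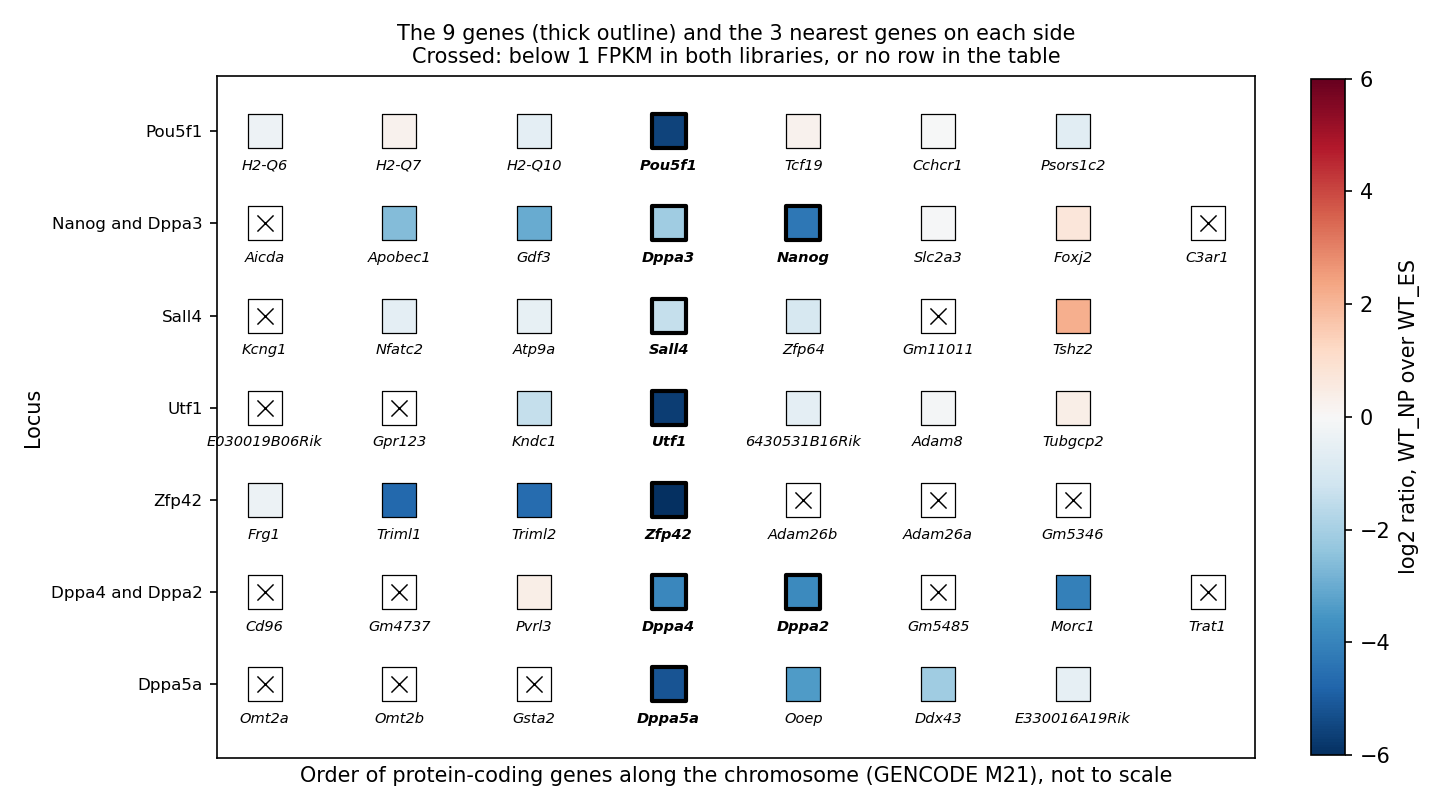
The 9 genes (thick outline) and the 3 nearest protein-coding genes on each side, in chromosomal order and not to scale, coloured by the log2 ratio of WT_NP over WT_ES (median-scaled FPKM with a pseudocount of 1). Crossed squares were below 1 FPKM in both libraries or had no row. Neighbours more than 4-fold lower lie beside Zfp42, Dppa5a, Dppa3 and Dppa2, but not beside Pou5f1.

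The knockout comparisons of the neighbours were as follows. In DKO_ES against WT_ES 0 of 25 neighbours at or above 1 FPKM were at least 2-fold higher and 0 lower on the log2 scale with a pseudocount, beside 2.56% and 1.15% of all genes, shares too low to read a difference from so few neighbours. Without a pseudocount 1 was higher, Psors1c2 (3.88 FPKM in WT_ES and 8.05 in DKO_ES), and 2 were lower, H2-Q7 (2.76 and 0.726) and H2-Q6 (1.56 and 0.602), all 3 beside Pou5f1. Gdf3, next to Dppa3, had a log2 ratio of -0.00 there and -0.04 in DKO_NP against WT_NP, where Dppa3 had ratios of 1.91 and 2.23. In DKO_NP against WT_NP 1 of 19 neighbours at or above 1 FPKM was at least 2-fold higher and 1 lower, beside 4.76% and 7.99% of all genes. Without a pseudocount 3 were higher, a setting with no share of all genes given. The lower one was Tshz2, near Sall4, at 2.51 FPKM in WT_NP and 0.285 in DKO_NP. Triml2, the higher one, had a ratio of 1.64 beside 2.29 for Zfp42, while Triml1 had 0.50, and Morc1 had 0.94 beside 1.82 for Dppa2. Slc2a3 had a ratio of -0.87 beside 1.24 for Nanog.

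Several of the 9 genes share sequence with other annotated transcripts, so part of their reads may come from or go to other loci. Of the distinct 50-base stretches (the read length) in GENCODE transcripts of Dppa5a, 38.6% also occur in transcripts of other genes, 31.3% for Dppa4, 29.1% for Dppa2 and 16.5% for Dppa3. For Pou5f1, Zfp42, Sall4 and Nanog the shares were 10.1%, 8.52%, 7.64% and 4.62%, and Utf1 had none. Pou5f1 and Sall4 each overlap an annotated gene on the other strand (Gm19553 and Gm14261), whose reads cannot be told apart, since no label says the libraries were stranded. Utf1, the gene with the lowest number of reads beside Dppa3 in WT_NP, rested on about 60 reads there and Dppa3 on about 54.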

How the data were processed

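The values are FPKM as deposited by the authors, 1 column per library and 23235 symbols after 18 blank rows were dropped (0 columns were unmapped). Libraries were made from 5 µg of rRNA-depleted RNA with a TruSeq kit and 15 PCR cycles and read single-end over 50 cycles, per the labels' protocols. The tools listed are TopHat and Bowtie and the build is mm9, per the submitters' processing notes. Not given in the sources used here are the tool versions, the FPKM program, its annotation and how it treated reads with several matches.

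Libraries were scaled by median of ratios, using the 11334 genes that reach 1 FPKM in every library (divisors 1.32, 0.671, 1.25 and 0.908 for WT_ES, WT_NP, DKO_ES and DKO_NP). Log2 ratios add 1 FPKM, which understates differences of low genes; genes that reach 1 FPKM in one of the libraries compared were counted at 2-fold, and members were counted without that filter. Folds use no pseudocount. The depth was read from the steps of low values: the library denominators were 2.63 (WT_NP), 1.09 (DKO_ES) and 1.82 (DKO_NP) relative to WT_ES, and with these, 86.5% of 3754 low genes held whole numbers of reads to within 0.04 read. With merged exon lengths of GENCODE M21, found for 89.7% of symbols, this gave about 11.1, 29.2, 12.1 and 20.2 M reads for WT_ES, WT_NP, DKO_ES and DKO_NP, and approximate reads per gene. Exact (Clopper-Pearson) 95% intervals of folds and exact Poisson intervals of levels come from these reads. The reads are rough, an interval is too narrow where they are too many, and all intervals cover counting error only, since PCR copies are not independent molecules. No sample-level test was run, because each group holds 1 library. The counting of genes past 2-fold was tested on simulated data.

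Members, gene lists and tests were chosen with earlier results of these data known. The genes named are the 9 members; of each pathway list the 3 with the highest FPKM and the 3 with the largest log2 ratio; neighbours that reach 5 FPKM; the 5 genes most like Pou5f1 and Dppa3, of which 1 is not reported here; and the targeted genes. Marker genes, the network partners past 2-fold, Kndc1, Tshz2, H2-Q6 and H2-Q7 were named after their values were seen. List genes were matched by symbol or RefSeq synonym, and Duxf3 and Dppa5b had no row. No GRCm38 coordinate was set against mm9 values; coordinates belong to the RefSeq windows. The planned comparison of protein sequences was not run. Scaling, pseudocount, filter and fold threshold were varied, for lists, neighbours and the count of the difference of ratios as an addition after seeing the data. Python 3.11.15, pandas 2.3.3, numpy 2.4.6, scipy 1.17.1 and matplotlib 3.10.9 were used.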

Additional observations from a re-analysis of the deposited data

Results flagged for a closer look

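The knockout fold lay on opposite sides of 1 on day 0 and day 6 for Utf1 and, except after upper-quartile scaling, for Sall4. The fold of Utf1 was 0.474 between DKO_ES and WT_ES and 2.252 between DKO_NP and WT_NP. The fold of Sall4 was 0.736 between ES cell libraries and 1.045 between day 6 libraries, where its interval began at 1 and upper-quartile scaling gave 0.966, so that its day 6 direction cannot be given. The difference between the days was not tested, since each group holds 1 library.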

How the results depend on the processing

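Of 36 member folds, 36 kept their direction as deposited and 35 with upper-quartile scaling, the exception being Sall4 between day 6 libraries (1.41 as deposited and 0.966 with upper-quartile scaling). As deposited, the members' median log2 ratio was -5.25 for WT_NP against WT_ES, -3.91 for DKO_NP against DKO_ES and 1.78 for DKO_NP against WT_NP, and the median DKO minus WT difference of ratios was 1.51. With a pseudocount of 0.1 FPKM the first was -4.48, the third 1.56 and the difference 1.22, and with upper-quartile scaling the first was -4.17. At a 4-fold threshold 2 of 9 genes were higher in DKO_NP than in WT_NP, and 0 were higher and 0 lower in DKO_ES than in WT_ES. The DKO minus WT difference reached 4-fold in 1 of 9 genes. The other member counts stayed within 1.5 times the reported ones. Of 120 counts over lists and neighbours, tried after the values were seen, 25 moved by more than that without scaling, 3 with upper-quartile scaling, 17 with a pseudocount of 0.1 FPKM and 18 with none. In WT_NP, 3 reads in a gene of 2 kb correspond to 0.0513 FPKM, below all 9 genes. No paired analysis was possible because each group holds 1 library.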

Other observations

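Relatives of the members, which the lists hold but the comparisons above leave out, did not all go with them. Of the Sall family, given as wild-type and knockout ES cells and then wild-type and knockout day 6 cells, Sall1 stood at 71.2, 64.2, 9.96 and 21.6 FPKM, Sall2 at 7.93, 7.75, 16.4 and 24.3, and Sall3 at 0.837, 0.621, 1.12 and 1.72. Sall2 thus stood above its ES cell level at day 6, where Sall1 and Sall4 stood below it. Yy1, a relative of Zfp42, stood at 59.3, 27.7, 27.1 and 37.7 FPKM in the same order of libraries. Pou5f2, a relative of Pou5f1, stood at 0.160, 0.294, 1.95 and 0.705 FPKM. Khdc3, listed as 2410004A20Rik, a KH-domain gene of the egg like Dppa5a's neighbour Ooep, stood at 23.3, 34.1, 0.228 and 7.11 FPKM.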
